A study of Mus musculus with 8 samples.

Results

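Matrix proteases cut the proteins that surround cells, and a set of dedicated inhibitors holds them in check. Expression of these genes was read from arrays of mouse embryonic stem (ES) cells before and after 3 days of differentiation with retinoic acid (RA). The genes were chosen by name: the matrix metalloproteinases (*Mmp*), their tissue inhibitors (*Timp1* to *Timp4*), the secreted *Adamts* proteases and the *Adamtsl* genes that resemble them without the protease domain, the urokinase activator *Plau*, its receptor *Plaur*, the serpin *Serpine2*, and *Serpinh1*, a chaperone of procollagen that belongs to the serpin family by sequence. The array carried 75 probes for 56 such genes, out of 31796 gene names that are not genome positions, and each gene was represented by its brightest probe. RNA came from 4 biological replicates of untreated E14Tg2A.4 cells, a mouse ES cell line, and from 4 replicates of the same line collected 72 h after addition of 1 µM all-trans RA in medium lacking leukemia inhibitory factor (LIF), a cytokine that holds ES cells in self-renewal. The medium of the untreated cells is not given in the sources used here, so effects of RA and of a change in LIF cannot be told apart, and all values describe this cell line.

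As background, MMPs are made as inactive zymogens and divide into collagenases, gelatinases, stromelysins and membrane-anchored enzymes. TIMPs block the active site of MMPs, and TIMP3 binds to the matrix and also inhibits several ADAM and ADAMTS enzymes. ADAMTS proteases process procollagen or cut proteoglycans such as aggrecan and versican. The plasminogen activators turn plasminogen into plasmin at the cell surface, and serpins such as SERPINE2 (protease nexin) inhibit them. In the early mouse embryo these systems are known for their part in implantation and in the basement membrane of the parietal yolk sac.

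On the arrays, 1 labelled RNA sample lights up each spot, and a value below is the log2 signal of a gene's probe relative to the 75th percentile of its array, so that 0 is the 75th percentile. The level of one of the 56 genes is not set against that of another. On each array 56.7% to 62.7% of the 59305 non-control spots were well above background by the scanner software, and no spot was saturated. All 6 pluripotency markers were lower after RA and all 5 RA response genes were higher. All 8 genes listed for yolk-sac endoderm, 7 of 8 mesenchymal genes (all but *Thy1*) and all 4 trophoblast genes were also higher. The summed level of the mesenchymal list, in multiples of the array's 75th percentile, ran from 1.44 to 2.31 in untreated cells and from 92.7 to 235 after RA. Such a sum weights bright probes most, and without *Acta2* it ran from 1.28 to 2.15 and from 21.3 to 39.7. The endoderm list summed to 1.01 to 1.73 in untreated cells and 20.4 to 33.2 after RA, and without *Foxa2* to 0.481 to 1.14 and 5.81 to 12.3. Corresponding ranges for the trophoblast list were 0.502 to 1.04 and 16.1 to 21.9. Of 5 neural genes, *Nes* was higher, *Tubb3* was lower and 3 were not called, with a summed level of 6.05 to 9.67 in untreated cells and 10.4 to 11.8 after RA, and without *Nes* of 4.34 to 7.68 and 1.61 to 2.25. None of 4 macrophage markers was called, their summed level was 0.411 to 0.916 against 0.563 to 0.807, and *Ptprc*, which marks all leukocytes, was well above background on no array. Of 4 endothelial markers 1 (*Pecam1*) was lower, and the list summed to 2.52 to 3.33 and 1.69 to 2.32, and without *Kdr* to 0.689 to 1.31 and 0.121 to 0.273. The part of these cell types in the results was not tested, and in bulk RNA fewer cells of a type and less RNA per cell cannot be told apart.

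After RA, 20 of the 56 genes (35.7%) were higher and 9 (16.1%) were lower, and 27 were not called. A gene was called where limma's test gave a Benjamini-Hochberg adjusted p below 0.05 over all 55681 probes and the change exceeded 1.5-fold. Over all gene names of the array, 14.9% were called higher and 21.4% lower, 36.3% in all, and over all probes 12.9% were higher and 21.6% lower. The median log2 fold change of the 56 genes was -0.25, beside -0.27 for all genes. On this scale the median of all 55681 probes was -0.28, and after quantile normalization it was -0.0026, with 21 of the 56 genes called higher and 6 lower (16.6% and 16.1% of all genes). Small decreases below are therefore to be read against that shift. After a normexp background correction and quantile normalization together, 19 genes were called higher and 5 lower. All 4 RA arrays lay above all 4 untreated arrays for 20 of the 56 genes (35.7%), beside 16.4% of all genes, and below them for 8 (14.3%), beside 24.6%.

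**Figure D1:**
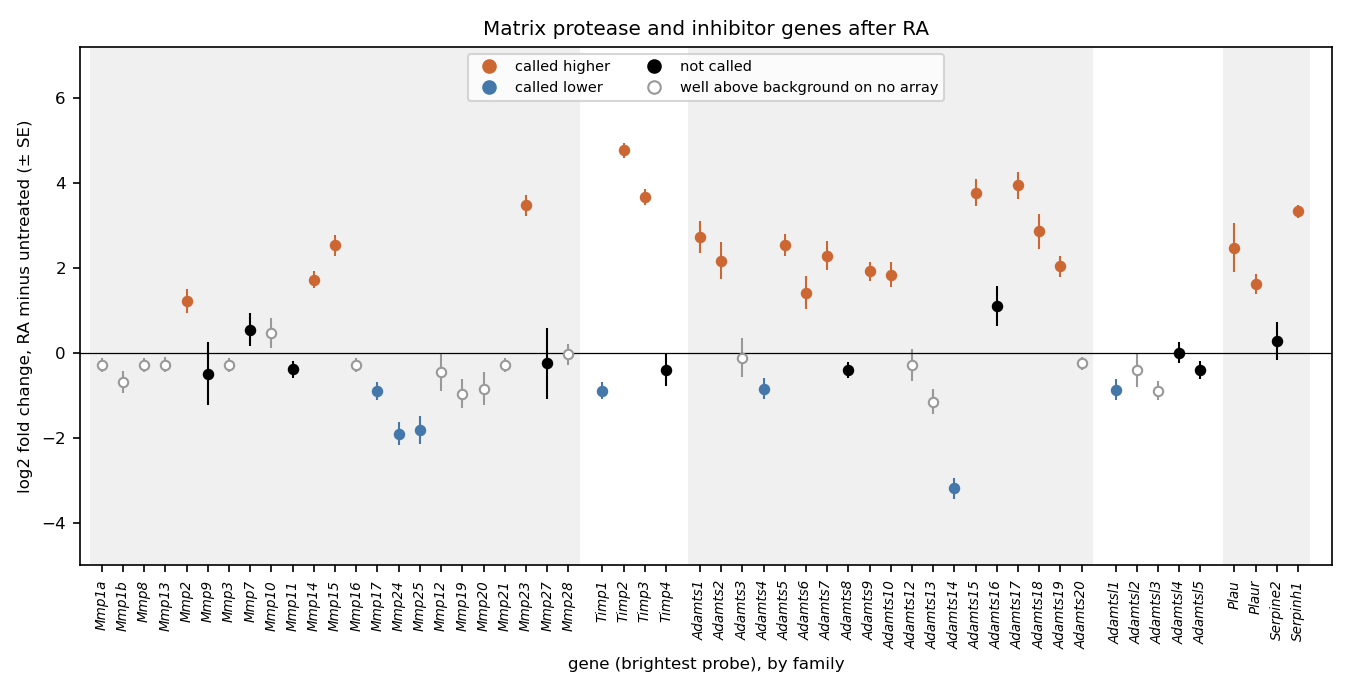
Log2 fold change (RA minus untreated, y axis) of the brightest probe of 55 genes, grouped by family along the x axis, with bars for the SE of the limma fit (4 arrays a group). Orange genes were called higher, blue lower and black not called, and open grey symbols mark the 18 genes well above background on no array, of which *Adamts13* and *Adamtsl3* were called lower. The highest points are *Timp2*, *Adamts17* and *Adamts15*, and *Adamts14* is the lowest.

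Probes of 28 of the 56 genes were well above background on all 8 arrays and those of 18 (32.1%) on none, beside 25.9% of all genes. Those 18 are *Mmp1a*, *Mmp1b*, *Mmp3*, *Mmp8*, *Mmp10*, *Mmp12*, *Mmp13*, *Mmp16*, *Mmp19*, *Mmp20*, *Mmp21*, *Mmp28*, *Adamts3*, *Adamts12*, *Adamts13*, *Adamts20*, *Adamtsl2* and *Adamtsl3*. The lower calls of *Adamts13* and *Adamtsl3* rest on such probes, so no fold is given, and without them 7 genes were lower. The genes called higher include *Adamts6*, whose probe was well above background on 1 RA array alone, so its increase cannot be measured either.

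The inhibitors gave the largest change of the family. *Timp2* (NM_011594, probe at chr11:118163146-118163205 in mm9), which besides inhibiting MMPs takes part in the activation of pro-MMP2 at the cell surface, read -0.98, -0.67, -0.75 and -1.20 in untreated replicates 1 to 4. After RA it read 4.01, 3.59, 3.87 and 3.99. The groups lay far apart, and the difference was 4.77 ± 0.173 on the log2 scale (SE, n = 4 and 4), or 27.2-fold (limma, adjusted p = 1.28e-06). A dimmer probe of *Timp2* gave 4.65. *Timp3* (NM_011595, probe at chr10:85811696-85811755), the matrix-bound inhibitor, read -0.22, -0.44, -0.35 and -0.28 in untreated cells and 3.77, 2.97, 3.21 and 3.46 after RA. No arrays overlapped, and *Timp3* was 12.8-fold higher (log2 fold change 3.68 ± 0.188, limma, adjusted p = 3.91e-06).

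*Timp1*, whose product is a soluble inhibitor, moved the other way. Its level was 3.09, 3.07, 2.28 and 2.91 in untreated cells and 2.02, 1.98, 1.79 and 1.98 after RA, so every RA array lay below every untreated array. It was 1.86-fold lower (-0.89 ± 0.200, limma, adjusted p = 0.0071). *Timp4* read -4.41, -4.56, -5.68 and -4.33 in untreated cells and -5.35, -4.31, -5.46 and -5.46 after RA, with 3 of 4 arrays in each group well above background. Its groups overlapped, and the change of -0.40 was not called (limma, adjusted p = 0.388). The call of *Timp1* was lost with limma's treat against 1.5-fold (adjusted p = 0.299) and within slide 1 (-0.69, adjusted p = 0.258). Under quantile normalization, *Timp2* and *Timp3* were called higher and *Timp1* lower, and *Timp4* was not called.

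*Serpinh1* (NM_009825, probe at chr7:106493971-106494030 in mm9), which encodes the procollagen chaperone HSP47, read 2.30, 2.01, 2.46 and 2.23 in untreated cells and 5.74, 5.52, 5.44 and 5.62 after RA. The replicates of each condition lay close together and the conditions apart, by 3.33 ± 0.150 on the log2 scale, or 10.1-fold (limma, adjusted p = 2.28e-06).

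In the plasminogen system the activator and its receptor were higher and *Serpine2* was not called. *Plaur*, the urokinase receptor, read 1.96, 1.32, 2.20 and 2.18 in untreated cells and 3.79, 3.71, 3.34 and 3.27 after RA, with no overlap (1.62 ± 0.233 on the log2 scale, 3.07-fold, limma, adjusted p = 0.000655). *Plau*, the urokinase-type activator itself, was well above background on 1 of 4 untreated arrays and on all 4 RA arrays. Its values were -7.33, -5.70, -4.70 and -6.95 and then -4.28, -4.10, -2.95 and -3.43, which is a difference of 2.48 ± 0.572 (5.59-fold, limma, adjusted p = 0.00828) with no overlap but a wide spread among untreated arrays. After normexp background correction the log2 difference of *Plau* was 0.64, and with the authors' processed values 0.87. Within slide 1 the call of *Plau* was lost (2.16, limma, adjusted p = 0.157).

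*Serpine2* read -1.16, -0.59, 1.10 and -0.15 in untreated cells and 0.01, -0.36, 0.30 and 0.38 after RA. The RA values lay inside the untreated range, and the change of 0.28 ± 0.437 was not called (limma, adjusted p = 0.610).

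**Figure D2:**
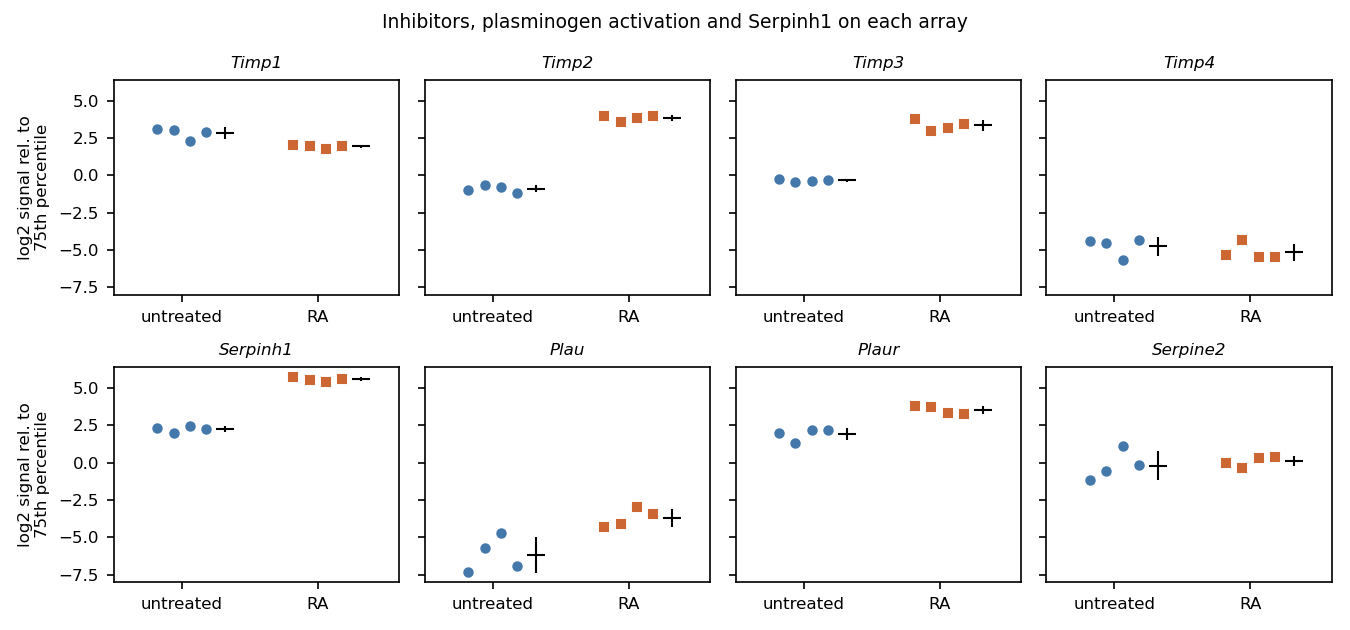
Log2 signal relative to the array's 75th percentile (y axis) of the 4 *Timp* genes, *Serpinh1*, *Plau*, *Plaur* and *Serpine2* on each of 4 untreated (blue circles) and 4 RA arrays (orange squares), replicates 1 to 4 from left to right, with the mean ± SD in black. *Timp2*, *Timp3* and *Serpinh1* rise clear of the untreated arrays, *Timp1* falls, and the RA arrays of *Serpine2* lie within the untreated range.

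Among the 23 *Mmp* genes, 4 were higher (17.4%, beside 14.9% of all genes), 3 were lower (13%, beside 21.4%) and 16 were not called, 12 of the 16 on probes well above background on no array. The membrane-type enzymes split. *Mmp14* (MT1-MMP), which cuts collagen at the cell surface and activates pro-MMP2, read -3.93, -3.25, -3.30 and -3.00 in untreated cells and -1.65, -1.54, -1.67 and -1.73 after RA. It was 3.30-fold higher (1.72 ± 0.204 on the log2 scale, limma, adjusted p = 0.000218) with no overlap. The log2 change of *Mmp14* was 1.15 after normexp and 1.28 with the authors' values. *Mmp15* (MT2-MMP), another transmembrane enzyme, read -2.53, -1.88, -1.62 and -2.01 before and 0.21, 0.25, 0.90 and 0.74 after RA, a 5.79-fold increase (2.53 ± 0.244, limma, adjusted p = 7e-05).

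The remaining membrane-type genes went down or were dim. *Mmp17* and *Mmp25* encode enzymes held by a glycolipid anchor. *Mmp17* read 0.81, 0.99, 0.62 and 1.17 in untreated cells and -0.12, -0.17, 0.48 and -0.22 after RA, which is 1.87-fold lower (-0.90 ± 0.204, limma, adjusted p = 0.00734). RA replicate 3 lay close under the lowest untreated array, and the call was lost with limma's treat (adjusted p = 0.29) and within either slide (adjusted p = 0.0826 and 0.123). *Mmp25* read -3.45, -3.27, -2.41 and -2.58 and then -5.04, -4.73, -4.02 and -5.22, and was 3.54-fold lower (-1.82 ± 0.326, limma, adjusted p = 0.0022) with no overlap. After normexp the change of *Mmp25* was -0.92, and with the authors' values -0.69. *Mmp24* (MT5-MMP), best known from neurons, read -4.32, -3.93, -4.08 and -4.02 in untreated cells and was well above background on no RA array (-5.57, -5.62, -6.81 and -5.97). With the scanner software's background correction it was at least 3.1-fold lower, measured against the lowest signal well above background on each RA array (limma, adjusted p = 0.000657 for the fitted change). After normexp the log2 change of *Mmp24* was -0.64, smaller than that bound. With the authors' values (-0.40) and normexp with quantile normalization (-0.41) it was under the 1.5-fold limit, and the call was lost. A second probe of *Mmp24*, above background on 3 arrays, gave 0.24 (limma, adjusted p = 0.613). *Mmp16* was well above background on no array.

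Of the gelatinases, *Mmp2* read -0.88, -0.64, 0.33 and -0.34 in untreated cells and 0.77, 0.43, 1.12 and 1.02 after RA. The lowest RA array lay just above the highest untreated one, and *Mmp2* was 2.32-fold higher (1.22 ± 0.278, limma, adjusted p = 0.00798). A test against a 1.5-fold change with limma's treat gave an adjusted p of 0.119. *Mmp9*, the other gelatinase, read -4.44, -4.26, -3.78 and -3.77 before RA and -3.67, -2.96, -4.62 and -6.97 after it. RA replicate 4 was not well above background and lay far below the rest, and the change of -0.49 ± 0.746 was not called (limma, adjusted p = 0.605). Without RA replicate 4 the difference of *Mmp9* was 0.31.

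*Mmp23*, which encodes a transmembrane enzyme without the usual hemopexin domain, showed the largest increase of the *Mmp* genes. It read -3.01, -2.52, -2.43 and -2.24 in untreated cells and 0.94, 0.32, 1.10 and 1.32 after RA, an 11.1-fold increase (3.47 ± 0.251, limma, adjusted p = 1.69e-05). *Mmp11* (stromelysin 3), which is cleaved by furin inside the cell, was well above background on all arrays. Its level was 3.23, 3.12, 2.75 and 3.29 before and 2.80, 2.26, 2.78 and 2.99 after RA, and both of its probes gave -0.39 without a call (limma, adjusted p = 0.163 and 0.185).

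**Figure D3:**
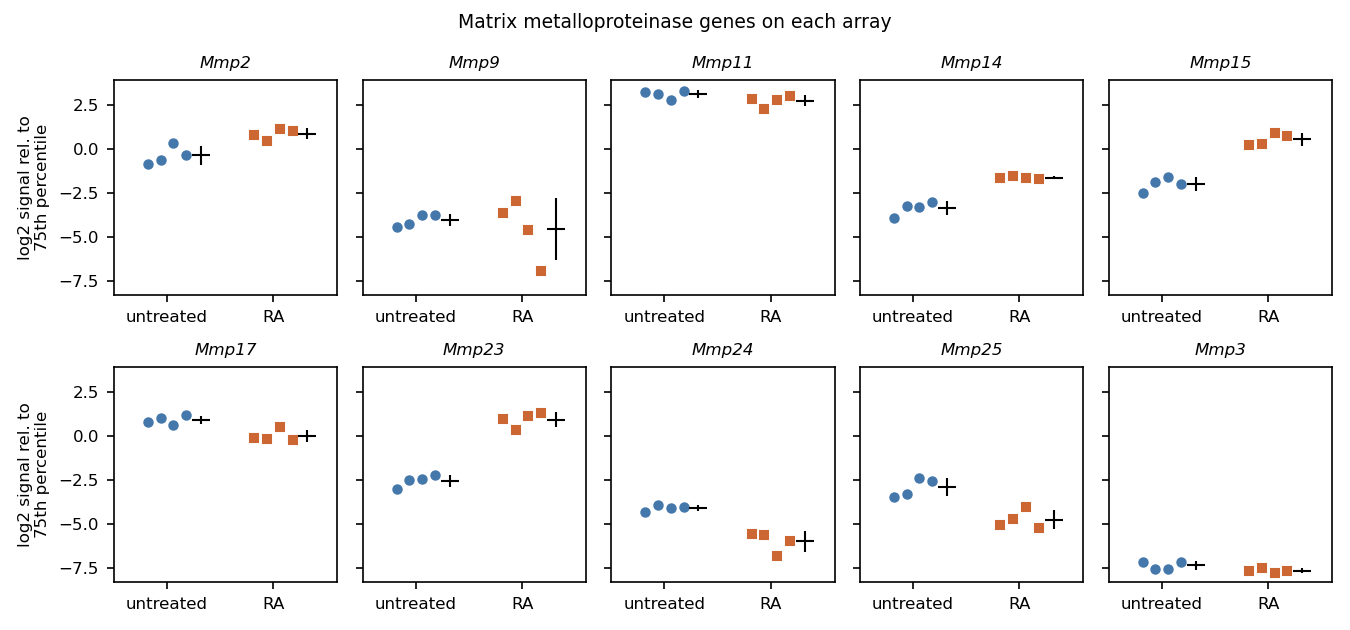
Log2 signal relative to the array's 75th percentile (y axis) of 10 *Mmp* genes on each of 4 untreated (blue circles) and 4 RA arrays (orange squares), replicates 1 to 4 from left to right, with the mean ± SD in black. *Mmp14*, *Mmp15* and *Mmp23* lie higher after RA and *Mmp17*, *Mmp24* and *Mmp25* lower, while *Mmp3* stays at the background level on every array.

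A block of *Mmp* genes on chromosome 9 was hardly detected on any array. It holds the collagenases *Mmp1a*, *Mmp1b*, *Mmp8* and *Mmp13*, the stromelysins *Mmp3* and *Mmp10*, the macrophage elastase *Mmp12*, the enamel enzyme *Mmp20*, the matrilysin *Mmp7*, and *Mmp27*. The probes of these 10 genes lie between positions 7282762 and 7697700 of chromosome 9 in mm9, a stretch of 414.9 kb. For 8 of the 10 the probe was well above background on no array. *Mmp27* passed on 1 untreated and 1 RA array and *Mmp7* on 1 RA array, and none of the 10 was called in either direction. An expressed gene below the background of this array would look the same.

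The promoters of these genes were set beside those of the other members. RefSeq promoters (GRCm38.p6, 250 bases before the annotated start) matched 39 of the 56 genes by symbol, 42 promoters in all. Printed below are the 120 bases before the start for 4 genes of this block and for 4 genes with large changes, 5′ to 3′ on the gene's strand. Capitals mark the TATA box letters TATAAA, the AP-1 motif TGACTCA and the GC box GGGCGG, each on either strand (TGAGTCA and CCGCCC are the reverse strand of the last pair), and neighbouring GC boxes can overlap. *Mmp3* is at chr9:7445702-7445821, *Mmp10* at chr9:7502222-7502341, *Mmp13* at chr9:7272394-7272513 and *Mmp1a* at chr9:7464021-7464140, all on the plus strand.
Mmp3: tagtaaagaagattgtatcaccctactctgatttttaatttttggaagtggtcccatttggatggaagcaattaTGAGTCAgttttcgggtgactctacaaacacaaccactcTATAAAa
Mmp10: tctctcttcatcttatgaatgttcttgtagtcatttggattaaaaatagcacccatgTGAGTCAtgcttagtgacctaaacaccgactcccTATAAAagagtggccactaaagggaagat
Mmp13: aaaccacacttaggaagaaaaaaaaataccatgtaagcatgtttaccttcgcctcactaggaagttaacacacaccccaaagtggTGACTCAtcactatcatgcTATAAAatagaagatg
Mmp1a: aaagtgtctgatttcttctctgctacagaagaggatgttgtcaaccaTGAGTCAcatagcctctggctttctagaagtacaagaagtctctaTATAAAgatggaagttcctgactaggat

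The corresponding stretches of *Timp2* (chr11:118355412-118355531, minus strand), *Timp3* (chr10:86300292-86300411, plus strand), *Serpinh1* (chr7:99353240-99353359, minus strand) and *Adamts14* (chr10:61273420-61273539, minus strand) hold GC boxes and neither of the other motifs.
Timp2: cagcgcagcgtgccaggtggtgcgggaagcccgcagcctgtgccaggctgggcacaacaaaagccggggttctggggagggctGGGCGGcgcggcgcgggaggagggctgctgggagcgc
Timp3: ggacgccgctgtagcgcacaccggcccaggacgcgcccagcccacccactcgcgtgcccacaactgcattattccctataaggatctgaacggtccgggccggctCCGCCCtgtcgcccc
Serpinh1: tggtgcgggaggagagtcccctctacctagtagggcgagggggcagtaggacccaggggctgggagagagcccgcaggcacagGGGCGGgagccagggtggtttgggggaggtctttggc
Adamts14: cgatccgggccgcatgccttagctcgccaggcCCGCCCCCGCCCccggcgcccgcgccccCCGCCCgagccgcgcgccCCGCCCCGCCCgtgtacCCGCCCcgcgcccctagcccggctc

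Over the 250 bases, 6 of the 10 genes of the block (*Mmp1a*, *Mmp1b*, *Mmp3*, *Mmp7*, *Mmp10* and *Mmp13*) had a promoter with both TATAAA and TGACTCA. Both motifs occurred together in 0.721% of all 32851 RefSeq promoters. Of the 12 promoters of the block, 58.3% held TATAAA, 58.3% TGACTCA and 0 GGGCGG, beside 12.4%, 4.46% and 32.7% of all promoters. Of the 30 promoters of the other members, 10%, 3.33% and 76.7% held them, and of the 19 promoters of members well above background on all 8 arrays 5.26%, 5.26% and 84.2% did. The block had a median of 1 CG dinucleotide in the window, all promoters 6, the other members 15 and the members detected on all arrays 17. Matched genes outside the block that were well above background on no array varied. *Adamtsl3* had 39, *Adamts3* 35, *Adamts20* 32 and *Mmp28* 15. Those genes and *Adamtsl2* (8) held GGGCGG, and *Adamts12* (6), *Adamts13* (1) and *Mmp21* (1) did not. The genes of the block arose by duplication, as background, so their promoters are not independent. Among the 13 promoters of genes called higher 76.9% held GGGCGG, and so did all 4 of genes called lower on detected probes. The direct repeat of AGGTCA with a spacer of 5 bases, a strict form of the RA receptor element, occurred in none of the 42 promoters and in 3 of all 32851. A match is only a match of letters.

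**Figure D4:**
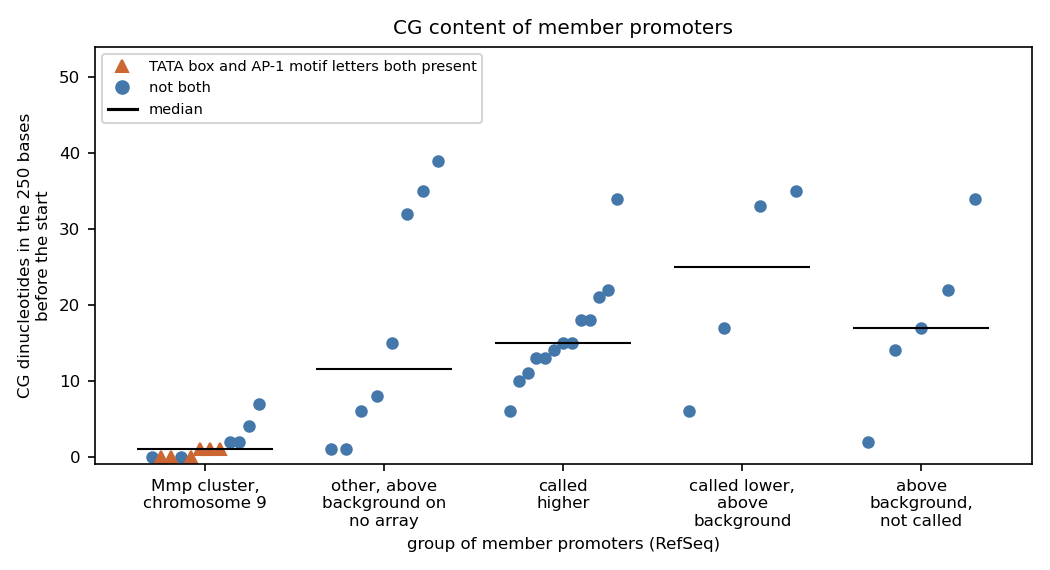
Number of CG dinucleotides in the 250 bases before the start (y axis) of the 42 RefSeq promoters matched to the genes, 1 point per promoter, by expression group (x axis), with the group median as a line. Orange triangles mark promoters that hold both TATAAA and TGACTCA, and all 6 belong to the *Mmp* block on chromosome 9, which also has the lowest median (1).

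Of the 19 *Adamts* genes, 11 were higher (57.9%, beside 14.9% of all genes), 3 were lower (15.8%, beside 21.4%), *Adamts13* among them on a probe well above background on no array, and 5 were not called. Among the 7 that are known to cut proteoglycans, *Adamts1*, *Adamts5*, *Adamts9* and *Adamts15* were higher and *Adamts4* lower, and *Adamts8* and *Adamts20* were not called. *Adamts15* read -3.42, -2.28, -3.54 and -3.01 in untreated cells and 1.03, 0.11, 0.70 and 1.00 after RA, a 13.7-fold increase (3.77 ± 0.317, limma, adjusted p = 3.48e-05), with a log2 difference of 3.00 after normexp. *Adamts1*, which cuts versican and aggrecan, read -1.67, -2.54, -1.21 and -1.37 before and 1.01, 0.23, 1.26 and 1.64 after RA, and was 6.64-fold higher (2.73 ± 0.368, limma, adjusted p = 0.000444). Neither gene overlapped between conditions.

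*Adamts5*, a main aggrecanase of cartilage, did not pass the background level on any untreated array (-7.01, -7.48, -6.98 and -7.36) and passed it on all 4 RA arrays (-4.03, -4.58, -4.88 and -5.18). With the scanner software's background correction it was at least 1.97-fold higher (limma, adjusted p = 9.16e-05 for the fitted change). After normexp background correction the log2 change was 0.45, below the 1.5-fold limit and below that bound. *Adamts4*, the other well-known aggrecanase, read -0.98, -1.0, -1.43 and -1.34 in untreated cells and -2.04, -1.31, -2.27 and -2.46 after RA. RA replicate 2 lay inside the untreated range, and the decrease of 1.78-fold (-0.84 ± 0.257) was called (limma, adjusted p = 0.0309). Leaving out untreated replicate 1 or 2 gave -0.77 each (adjusted p = 0.0773 and 0.0723), leaving out RA replicate 1, 3 or 4 gave -0.83, -0.75 and -0.69 (adjusted p = 0.0677, 0.0805 and 0.0831), so 5 of 8 single arrays removed the call of *Adamts4*.

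The procollagen N-proteinases, which trim the amino end of fibrillar procollagens, went in opposite directions. *Adamts14* (NM_001081127, probe at chr10:60659860-60659919 in mm9) had the largest decrease of all 56 genes. It read 2.76, 3.08, 2.43 and 2.78 in untreated cells and -0.63, 0.26, -0.53 and -0.81 after RA, 9.13-fold lower (-3.19 ± 0.254, limma, adjusted p = 2.67e-05), and its dimmer probe, not well above background after RA, gave a fitted change of -2.86. *Adamts2* read -4.03, -3.95, -2.62 and -3.62 in untreated cells and -0.23, -2.04, -1.78 and -1.48 after RA, 4.51-fold higher (2.17 ± 0.442, limma, adjusted p = 0.00438). The groups of both genes stood apart. A second probe of *Adamts2*, well above background on 3 RA arrays alone, gave 0.29 (limma, adjusted p = 0.397), and the brighter probe gave 1.49 after normexp. *Adamts3* was well above background on no array.

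Of the 9 other *Adamts* genes, 6 were higher (66.7%, beside 14.9% of all genes) and 2 were not called. The undetected *Adamts13* was the 1 called lower (11.1%, beside 21.4%). *Adamts17*, linked to fibrillin-rich connective tissue, read -3.40, -2.96, -3.55 and -3.70 in untreated cells and 0.56, -0.30, 0.56 and 1.32 after RA. The groups stood apart, and *Adamts17* was 15.3-fold higher (3.94 ± 0.327, limma, adjusted p = 3.25e-05), while its dimmer probe, also well above background on all arrays, gave 0.89. The brighter probe gave 3.1 after normexp. *Adamts18* was well above background on 1 untreated array and on all RA arrays, and rose 7.28-fold, from -5.75, -6.48, -4.76 and -6.67 to -2.76, -3.34, -3.41 and -2.69 (2.86 ± 0.409, limma, adjusted p = 0.000626). After normexp its log2 difference was 0.87, and with the authors' values 1.08. *Adamts7*, which is known to cut cartilage oligomeric matrix protein, read -4.73, -3.73, -3.03 and -4.48 and then -1.88, -1.81, -1.72 and -1.42, and was 4.88-fold higher (2.29 ± 0.351, limma, adjusted p = 0.000927), or 1.34 on the log2 scale after normexp. Neither *Adamts18* nor *Adamts7* had overlapping groups. The other 3 that were higher are *Adamts19* (a log2 fold change of 2.04), *Adamts10* (1.84) and *Adamts6*. The last was well above background on 1 RA array alone, so no fold is given. *Adamts9*, the remaining proteoglycanase that was higher, gave 1.92.

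Of the 5 *Adamtsl* genes none was called higher on its brightest probe, beside 14.9% of all genes. *Adamtsl1* and the undetected *Adamtsl3* were called lower (40%, beside 21.4%), and 3 were not called. A list of 5 genes is too short for a result about the group. *Adamtsl1*, whose product is secreted and lacks protease activity, read -2.97, -2.56, -3.21 and -3.01 in untreated cells and -3.93, -4.37, -3.32 and -3.62 after RA, 1.83-fold lower (-0.87 ± 0.248, limma, adjusted p = 0.0225), with the highest RA array just under the lowest untreated one. With replicate number as a block the adjusted p was 0.0635, after quantile normalization the change was -0.67 (adjusted p = 0.101), and without untreated replicate 2 or RA replicate 1 it was -0.74 or -0.83 (adjusted p = 0.0566 and 0.0585). After normexp it was -0.51, under the 1.5-fold limit, and with the authors' values, normexp with quantile normalization or the mean of its probes it was -0.30 (limma, adjusted p = 0.122, 0.12 and 0.431). The probes of *Adamtsl5* disagreed. Its brighter probe read -2.55, -2.47, -2.04 and -2.29 and then -2.75, -3.16, -2.26 and -2.80 (-0.41, limma, adjusted p = 0.173). Its dimmer probe read -4.67, -3.53, -3.54 and -3.37 and then -1.88, -2.28, -1.60 and -1.55 (1.95, limma, adjusted p = 0.00109), and both were well above background on all arrays.

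**Figure D5:**
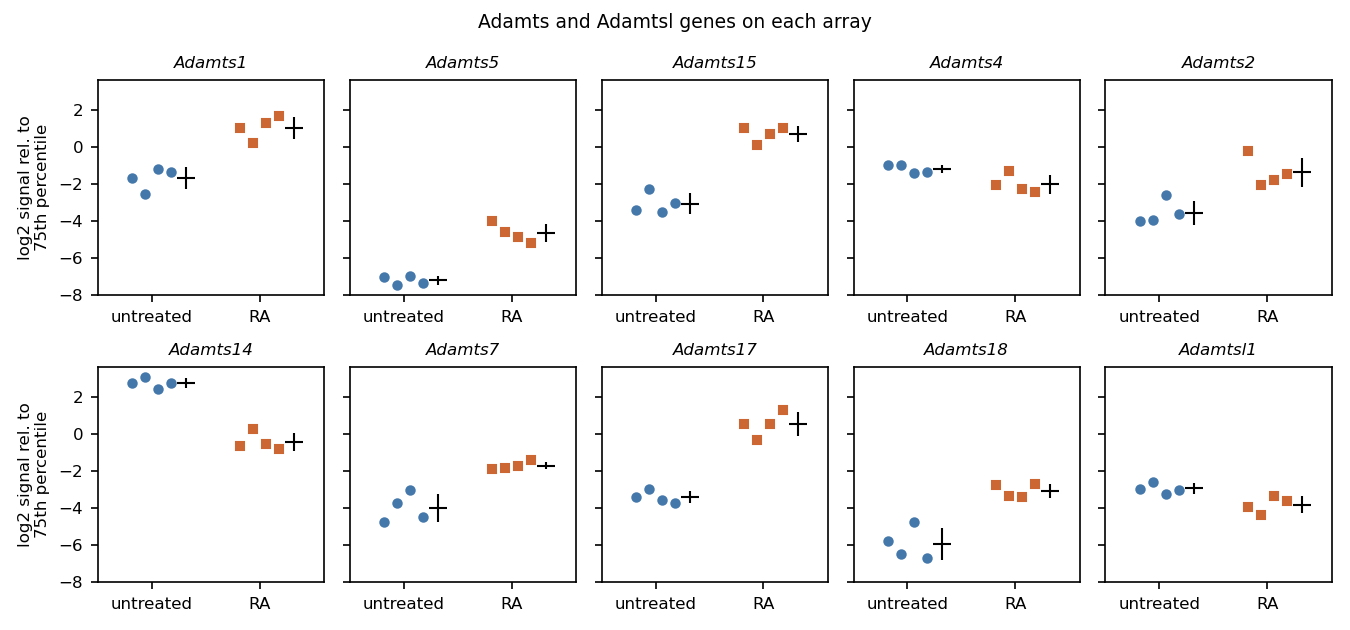
Log2 signal relative to the array's 75th percentile (y axis) of 9 *Adamts* genes and *Adamtsl1* on each of 4 untreated (blue circles) and 4 RA arrays (orange squares), replicates 1 to 4 from left to right, with the mean ± SD in black. *Adamts2* lies higher and *Adamts14* lower after RA, and the groups of *Adamts4* overlap.

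Related proteases, inhibitors and processing enzymes of the same pathways were read from a list of 40 genes, of which 39 were on the array. After RA 15 were higher, 4 lower and 20 were not called, where 14.9% of all genes were higher and 21.4% lower. *Plat*, the tissue-type plasminogen activator, gave the second activator of the plasmin cascade that was higher, 39.2-fold (5.29 ± 0.360 on the log2 scale, limma, adjusted p = 1.28e-05). *Thsd4*, an ADAMTS-like gene of microfibrils, gave 6.24 and was well above background on 1 untreated array. Of 9 protease inhibitors on the list 3 were higher and 6 were not called. *Serping1* and the membrane-anchored MMP inhibitor *Reck* gave log2 fold changes of 1.19 and 1.09. *Serpinf2*, the plasmin inhibitor, was at least 2.98-fold higher with the scanner software's background correction. *Serpinf1*, a serpin by sequence that does not inhibit proteases, gave 4.15.

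Enzymes that process procollagen or zymogens were also measured. *Bmp1*, the procollagen C-proteinase, was the only 1 of 3 such enzymes called (*Tll1* and *Tll2* were not) and rose by 3.84 and *Furin*, which activates proenzymes including membrane-type MMPs, by 2.00, on the log2 scale. *Pcolce2* and *Pcolce*, which enhance the C-proteinase, fell by 3.62 and 1.04, and *Pcsk6* fell by 1.50. Of the 7 membrane-bound ADAM genes on the list 3 were not called (*Adam8*, *Adam12* and *Adam17*), while *Adam10*, *Adam9* and *Adam15* rose by 2.23, 1.22 and 0.62 and *Adam19* fell by 1.19. Over all genes of the array 14.9% were called higher and 21.4% lower, and these short lists give no result about the groups they name.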

How the data were processed

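Total RNA of 4 untreated and 4 RA-treated E14Tg2A.4 cultures was hybridized to 1-colour Agilent mouse arrays. The authors deposited the scanner intensity of each spot (Feature Extraction 10.7.3.1), corrected for background by the software and not normalized between arrays, and a table of processed log2 values with the same median (6.76) in every column. The background correction and normalization behind that table are not given in the sources used here. Probe positions are on mm9 and RefSeq promoters on GRCm38.p6, and the builds were not mixed.

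Log2 intensity minus the array's 75th percentile over 59305 non-control spots was used. Control spots (3671) and outlier spots (124 to 145 an array) were removed, and replicate spots were averaged to 55681 probes. A gene took the probe with the highest mean over 8 arrays. Conditions were compared with lmFit and eBayes (limma 3.58.1, R 4.3.3) and Benjamini-Hochberg adjustment over all probes, at an adjusted p of 0.05 and a 1.5-fold change. The number of arrays limits the precision. A probe well above background on no array of a group has only a bound there. The bound is the mean over arrays of the lowest signal well above background, or of the probe's own signal where that was higher. It depends on the software's background correction, and normexp gave smaller changes for *Mmp24* and *Adamts5*.

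Genes named were the *Timp* and plasminogen genes, *Serpinh1*, *Mmp2*, *Mmp9*, *Mmp11*, *Mmp14* and *Mmp15*, among the other called genes the 8 largest increases and 8 largest decreases, and genes whose detected probes disagreed. *Adamts6*, *Adamts9*, *Adamts10* and *Adamts19* complete the called genes. Values of 1 of the 56 genes are not reported here, though the counts include it. The genes, lists and motifs were chosen with earlier results of these data known. Replicate numbers were taken from the labels. After subtraction of condition means, untreated and RA arrays with a common number correlated by 0.186, 0.189, 0.104 and 0.151 (replicates 1 to 4, over 27493 probes detected everywhere), beside 0.142 and 0.13 for the highest values between different numbers. Replicate 3 (0.104) lay below both of these, which join untreated replicate 1 with RA replicate 4 and untreated replicate 4 with RA replicate 3. Both pairs shared a slide, as did the arrays of replicates 1 and 2, so the check does not separate number from slide there. An alternative fit paired the cultures by number on the basis of the labels, and the check does not settle whether they were paired. Each of 2 slides held 2 arrays of each condition.

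On simulated data for RA against untreated, in which 200 of 55681 probes were raised by 2 on the log2 scale, the fit recovered 141 and called 10 that had not been changed. The simulated noise was independent between probes, and in the data 12.9% of probes were called higher and 21.6% lower. These counts therefore do not give error rates for the real comparison. Alternative settings covered scaling, background correction (normexp, offset 50), the authors' log2 values, a filter on dim probes, replicate and slide blocks, each slide alone, treat, a 2-fold limit, the mean of all probes of a gene and leaving out each array. Motifs were counted with Python 3.11.15.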

Additional observations from a re-analysis of the deposited data

Results flagged for a closer look

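In 60 groups of 4 arrays, the values of the 30 named genes in each condition, 3 arrays stood apart from the other 3 of their group by Dixon's criterion, where chance gives about 1 in 20, or 3. *Timp4* in untreated replicate 3 read -5.68, below the others at -4.56 to -4.33. *Timp4* in RA replicate 2 read -4.31, above the others at -5.46 to -5.35. *Mmp17* in RA replicate 3 read 0.48, above the others at -0.22 to -0.12.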

How the results depend on the processing

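The number of genes called higher was 16 to 21 under every alternative. The number called lower (9) was 5 after normexp with quantile normalization and with the authors' processed values, 3 within slide 2, 3 with treat and 4 at a 2-fold limit. Leaving out members well above background on no array, chosen after the data were seen, gave 20 and 7. The median log2 fold change of the 56 genes (-0.25) was 0.05 after normexp with quantile normalization and with the authors' values, 1.67 over probes well above background on at least 4 arrays, which tests fewer genes and lets through genes that are bright in 1 condition alone, and 0.10 within slide 1. Leaving out 1 array gave 20 to 21 genes higher, 7 to 10 lower and a median of -0.35 to -0.05, and for the related list 13 to 16 higher and 4 to 5 lower.

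With replicate number as a block, a pairing taken from the labels alone, 20 genes were higher and 8 lower. *Adamtsl1* (-0.87, limma, adjusted p = 0.0635) was the only named gene to lose its call. *Mmp9*, not called, changed sign to 0.05 after normexp with quantile normalization, 0.06 with the authors' values, 0.23 within slide 2 and 0.31 without RA replicate 4 (range over arrays left out -1.02 to 0.31). *Serpine2*, not called, was -0.03 without untreated replicate 1 (range -0.03 to 0.72). *Mmp24* was -0.41 after normexp with quantile normalization and -0.40 with the authors' values, under the 1.5-fold limit. Within a slide, with 2 arrays a group, *Mmp2*, *Mmp17*, *Adamtsl1*, *Adamtsl3* and *Adamts4* lost their calls on both slides, *Timp1*, *Plau* and *Adamts7* on slide 1 alone and *Mmp25* and *Adamts13* on slide 2 alone. With treat *Mmp2*, *Timp1*, *Mmp17*, *Adamts4*, *Adamts13*, *Adamtsl1* and *Adamtsl3* lost theirs. The cause of these changes was not tested. Signal over background limits the 18 dim genes, whose changes cannot be measured here.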

Other observations

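*Timp1*, *Timp3* and *Timp4* are known to lie within introns of the synapsin genes *Syn1*, *Syn3* and *Syn2*, which encode proteins of synaptic vesicles. The synapsins were looked up for this reason and lie outside the rule for named genes. *Syn3* read -2.90, -3.98, -4.36 and -4.70 in untreated cells and -5.87, -5.73, -5.77 and -5.29 after RA, with no overlap, but was well above background on 1 of 4 RA arrays alone. *Syn1* changed by -0.85 ± 0.292 (limma, adjusted p = 0.0472), with overlapping groups. *Syn2* read -6.84, -6.00, -6.60 and -6.10 in untreated cells and -1.72, -1.78, -3.17 and -3.22 after RA, and was well above background on the RA arrays alone.

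Read by replicate number, the 4 differences between RA and untreated arrays of *Mmp9* were 0.77, 1.30, -0.84 and -3.20, higher in replicates 1 and 2 and lower in replicates 3 and 4. The arrays of a number shared a slide for replicates 1 and 2 and lay on different slides for 3 and 4, and the part of the slide in these differences was not tested. The differences of *Timp2* (4.99, 4.26, 4.62 and 5.19) had the same sign in all 4.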
